A study of Mus musculus with 6 samples.

Results

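Cytochromes P450 are heme enzymes that insert an oxygen atom into lipids, steroids, retinoids, vitamin D and foreign compounds, and the liver is the organ best known for them. Microsomal members take electrons from cytochrome P450 reductase, with help from cytochrome b5, and mitochondrial members take them from ferredoxin. Family 3 handles drugs and steroids. Family 4 hydroxylates fatty acids and eicosanoids at or near the end of the chain. Families 11, 17 and 21 make steroid hormones, and family 26 clears retinoic acid. The members described here are all probe sets with a single gene symbol that begins with Cyp and a family number other than 2, 7, 8, 27 and 51. They are 44 of the 45101 probe sets of the array and stand for 32 of 18193 singly named genes, in 11 families. Another 3 probe sets carry a symbol of this kind together with another gene and were left out.

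The livers came from mouse fetuses at E18.5, shortly before birth, and each of 6 arrays holds total RNA of 1 sample. In the 3 null livers (Null_61, Null_1191 and Null_1195) both Hnf4 alleles are flanked by loxP sites, and in the 3 control livers (Control_8, Control_1192 and Control_1193) 1 allele is flanked and the other is not. All 6 carry the AlfpCre transgene, so Cre can act on the flanked allele of the controls as well. AlfpCre expresses Cre recombinase under albumin and alpha-fetoprotein regulatory elements, which are active in the hepatocyte lineage, whereas the arrays read whole liver with blood-forming, endothelial and mesenchymal cells in it. HNF4 alpha is a nuclear receptor of hepatocytes that binds many liver promoters, and the comparison asks which transcripts depend on it.

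Intensities are given as deposited, on a linear scale. Array medians ran from 91.8 to 99.6, and a probe set whose mean lay below 99.6, the highest of them, is called dim. Values with ± are means and SD over 3 arrays. A log2 change is null minus control after values below 0 were set to 0 and a pseudocount of 32 was added, which understates the change of dim genes. A gene is called where limma's adjusted p over all 45037 probe sets tested is under 0.05, and a fold is given only where both group means exceed 99.6. The labels do not tie livers to litters or separate matings. The p values therefore reflect variation among these 6 arrays, whatever its source, and the small number of arrays limits the precision.

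Some facts of the whole set of arrays bear on what follows. Hnf4a itself was lower in null livers without being lost: its 4 probe sets read between 62.2% and 73.7% of the control mean, and 2 of them were called (adjusted p = 0.0434 and 0.0488). Which part of the transcript each reads was not examined. Of 8 measured hepatocyte markers 6 were called lower, with a summed intensity of 52243 to 57249 in null livers and 85718 to 87195 in control livers, while Alb, for albumin, read 10651 ± 460 in null livers and 10532 ± 270 in control livers, near the top of the arrays' range. In whole tissue, fewer cells of a type and less RNA per cell cannot be told apart. Of macrophage markers 3 of 10 were called higher, with sums of 6214 to 10080 in null livers and 4350 to 5147 in control livers. Of megakaryocyte and mast cell markers 3 of 7 were called lower (sums 3611 to 4115 in null livers, 5102 to 7116 in control livers), and of sinusoidal endothelial markers 3 of 8 (1556 to 1836 in null livers, 2080 to 2338 in control livers). No erythroid (of 6), mesenchymal (of 9), biliary (of 4) or lung marker (of 4) was called, and 1 of 9 neutrophil markers, 2 of 6 adrenal markers and 1 of 5 gut and pancreas markers were called lower. Erythroid sums were still higher in every null liver (15973 to 16329, against 14116 to 14831 in control livers). Lung sums were too (421 to 431, against 347 to 371), while mesenchymal and biliary sums overlapped. The lung sums are made of low values, and 2 of the 4 lung markers lay below 99.6 in every array. For comparison, 7.85% of all genes were called lower and 1.56% higher. The part of these shifts in the P450 results was not tested.

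Of the 32 P450 genes, 9 were lower in null livers and none was higher, and the falls lay in families 3, 4 and 39. Cyp3a11, Cyp3a25, Cyp4a14, Cyp4a12a and Cyp3a16 fell furthest, to dim or near-zero signal. Cyp39a1, Cyp4f15, Cyp4v3 and Cyp4f13 fell less far, though Cyp39a1 and Cyp4f13 were also dim in null livers. Over all genes, 7.85% were called lower and 1.56% higher. Among genes whose brighter group was not dim the figures were 10.6% and 1.77%, and 23 of the 32 P450 genes were of that kind, with all 9 calls among them. At the level of probe sets 9 of 44 were called lower and none higher, against 5.55% and 1.46% of all probe sets. The median log2 change was -0.18 over the 32 P450 genes and 0.01 over all genes, so the typical member moved little and a minority moved far. At an unadjusted p under 0.05 there were 12 genes on the lower side and 1, Cyp26b1, on the higher side, against 15.2% and 9.1% of all genes. In 13 P450 genes all 3 null arrays lay below all 3 control arrays and in 2 they lay above, while over all genes these patterns made up 17.9% and 13.2%. With quantile normalization the calls over all genes split into 1196 lower and 617 higher, against 1428 and 283 without it. The 9 P450 calls were the same under it, and Cyp26b1 was then called higher (log2 change 0.43, adjusted p = 0.0450).

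**Figure D1:**
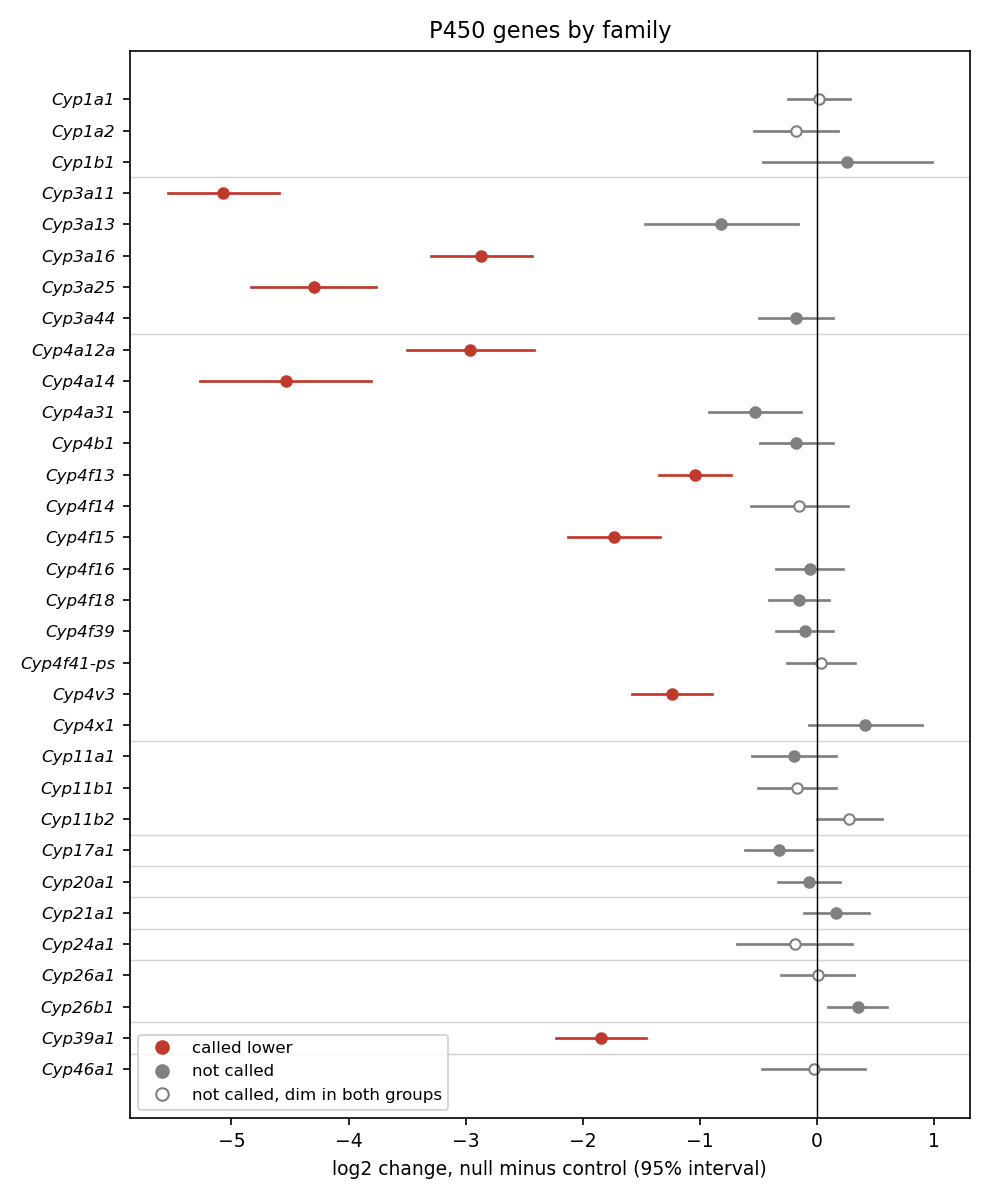
Log2 change (null minus control, pseudocount 32) of each of the 32 P450 genes, in order of family, with its 95% interval from limma and grey lines between families. Red points are the 9 genes called lower, grey points were not called, and open points are the 9 genes that were dim in both groups; the red points lie between -5.07 and -1.04.

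Family 3 held the deepest fall and also a bright member with a small change that was not called. The Cyp3a subfamily is the main set of drug- and steroid-oxidising enzymes of the liver, and 3 of its 5 measured genes were called lower. Cyp3a11, the major enzyme of this kind in adult mouse liver, read 48.2 in Null_61, 56.4 in Null_1191 and 47.6 in Null_1195, against 1943 in Control_8, 3636 in Control_1192 and 2916 in Control_1193. All null arrays were dim and the groups lay far apart, with a log2 change of -5.07 (standard error 0.21, adjusted p = 1.55e-06). Cyp3a25 read -2.89, 5.78 and 3.37 in the null arrays in the same order, against 429, 893 and 730 in the control arrays. Its null values were at the floor of the scale, and the log2 change was -4.30 (standard error 0.23, adjusted p = 8.76e-06). Cyp3a16, known in mouse as a form of fetal and newborn liver, read 11.8, 6.63 and 12.6 in null livers and 207, 269 and 373 in control livers. Every null array lay far below every control array (log2 change -2.86, standard error 0.19, adjusted p = 2.9e-05). The sizes of these falls depend on the pseudocount, since the null values are close to 0: over all alternatives the log2 change ran from -5.73 to -4.24 for Cyp3a11, from -7.73 to -2.88 for Cyp3a25 and from -4.65 to -1.77 for Cyp3a16, and each stayed called wherever it was tested.

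Cyp3a44, known in adult mice as a form favoured in females, did not follow them. It read 981 in Null_61, 831 in Null_1191 and 1004 in Null_1195, against 1226 in Control_8, 905 in Control_1192 and 1086 in Control_1193. The groups overlapped. The log2 change was -0.18 with a 95% interval from -0.49 to 0.14 (adjusted p = 0.501), and it was 0.04 with quantile normalization. Cyp3a13, the member of this subfamily that lies apart from the others, read 159, 217 and 315 in null livers and 431, 604 and 274 in control livers. Null_1195 lay inside the control range, and the log2 change of -0.82 (standard error 0.29) was not called (adjusted p = 0.145). In the RefSeq order of protein-coding genes on chromosome 5, Cyp3a44, Cyp3a11 and Cyp3a25 follow each other directly, so a gene that was not called sits beside the P450 gene with the largest fall. The change of Cyp3a44 exceeded that of Cyp3a11 by 4.89, that of Cyp3a25 by 4.12 and that of Cyp3a16 by 2.68 on the log2 scale. Taken within each array, these differences did not overlap between null and control livers. An exact two-sided permutation test gave p = 0.1 for each, the smallest value that 3 arrays against 3 allow, as for all 8 pairs of neighbouring or related members compared. Each pair set a called gene beside one that was not called, and was chosen with earlier results known. The outcome was therefore close to fixed and adds little to the calls. The genes of this cluster are close copies of each other, and how far a probe set reads more than 1 of them was not tested.

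**Figure D2:**
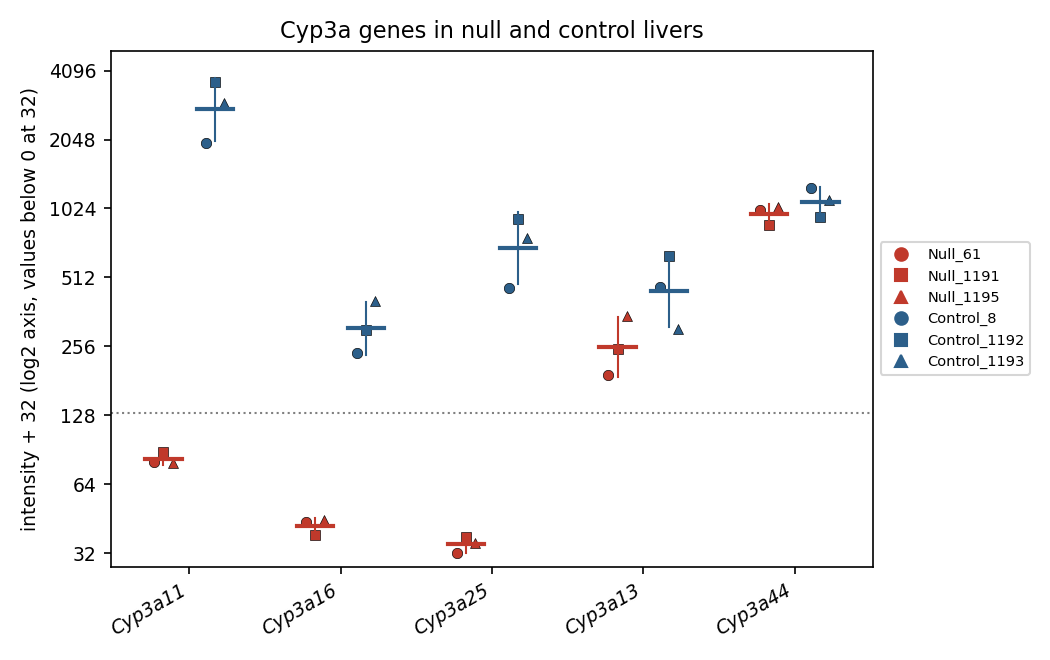
Intensity plus 32 on a log2 axis for the 5 Cyp3a genes, with null arrays in red at the left of each gene and control arrays in blue at the right. Bars are means and SD of the log2 values (n = 3), and the dotted line marks the highest array median, 99.6; Cyp3a11, Cyp3a16 and Cyp3a25 lie below it in every null array, whereas Cyp3a44 lies well above it in all 6.

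The promoters of 4 of these genes are shown as a description, and whether they bear on the difference in response was not tested. Each sequence is the 250 bases before the annotated start, from RefSeq on GRCm38.p6, all on the minus strand, and reads 5′ to 3′ with the start just after the last base. Capitals mark the match to CAAAGNNCA, an HNF4-type core searched on both strands, of which CAAAGTCCA is the special case known as the preferred core of HNF4 alpha. Cyp3a11 lies at chr5:145879855-145880104, Cyp3a16 at chr5:145469724-145469973, Cyp3a25 at chr5:146009619-146009868 and Cyp3a44 at chr5:145805875-145806124.
Cyp3a11: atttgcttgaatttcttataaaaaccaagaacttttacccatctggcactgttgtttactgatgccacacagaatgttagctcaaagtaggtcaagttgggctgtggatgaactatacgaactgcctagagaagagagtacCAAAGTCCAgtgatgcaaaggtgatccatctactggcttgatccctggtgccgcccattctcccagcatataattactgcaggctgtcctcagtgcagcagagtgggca
Cyp3a16: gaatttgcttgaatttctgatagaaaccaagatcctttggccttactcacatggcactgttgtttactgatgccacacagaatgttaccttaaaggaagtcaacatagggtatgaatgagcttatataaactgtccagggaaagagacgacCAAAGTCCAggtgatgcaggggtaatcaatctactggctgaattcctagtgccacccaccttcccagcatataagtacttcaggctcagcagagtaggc
Cyp3a25: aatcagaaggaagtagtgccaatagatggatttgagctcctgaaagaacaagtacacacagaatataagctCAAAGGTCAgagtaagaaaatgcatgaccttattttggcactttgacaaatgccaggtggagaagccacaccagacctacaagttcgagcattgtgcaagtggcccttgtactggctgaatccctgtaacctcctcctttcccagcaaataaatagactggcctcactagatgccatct
Cyp3a44: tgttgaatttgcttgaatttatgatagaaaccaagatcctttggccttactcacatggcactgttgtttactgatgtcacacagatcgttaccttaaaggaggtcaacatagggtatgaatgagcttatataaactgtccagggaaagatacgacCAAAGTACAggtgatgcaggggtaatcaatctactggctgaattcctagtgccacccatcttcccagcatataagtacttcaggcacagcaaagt

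The windows of Cyp3a16 and Cyp3a44 are nearly the same, with 236 of 246 aligned bases identical (95.9%), although the first gene was called lower and the second was not. Within the capitals they differ at 1 base, C7A, counted from 1 at the 5′ end of the core and with the base of Cyp3a16 first. The other differing bases lie outside the capitals, and the effect of any of them was not tested. Cyp3a11 has the same core as Cyp3a16, beginning 109 bases before the start where that of Cyp3a16 begins 99 before it, and Cyp3a44 has its match 95 bases before. Cyp3a25 carries CAAAGGTCA, 179 bases before its start. CAAAGTCCA stood in 0.384% of all 32851 promoter windows of this length and CAAAGNNCA in 5.49%. Cyp3a25 has 2 windows in the table, of which the first is shown. A window was listed for 21 of the 32 members. CAAAGTCCA was found in 2 of the 6 called members with a window, Cyp3a11 and Cyp3a16, and in 0 of 15 members that were not called. CAAAGNNCA was found in 3 of the 6, adding Cyp3a25, and in 3 of the 15, namely Cyp3a44, Cyp4b1 and Cyp26a1. A match here is a run of letters in a short window, and binding was not measured. The core letters were chosen while these windows were read, so the counts are a description and test nothing. The windows of Cyp3a11 and Cyp3a16 are also alike, with 83.7% of aligned bases identical.

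Family 4 was split by subfamily and, within subfamilies, gene by gene. Of its 13 measured genes 5 were called lower, with log2 changes from -4.54 to -1.04, and the rest lay between -0.53 and 0.41. The Cyp4a enzymes, which hydroxylate fatty acids at the omega carbon and are known targets of PPAR alpha, held the 2 largest falls. Cyp4a14 read 14.8 in Null_61, 25.9 in Null_1191 and 19.5 in Null_1195, against 1347 in Control_8, 1840 in Control_1192 and 642 in Control_1193. The null livers all lay far below the control livers, of which Control_1192 was the highest and Control_1193 the lowest (log2 change -4.54, standard error 0.32, adjusted p = 4.21e-05). Cyp4a12a, known in adult mice as a form favoured in males, read 9.83, 12.1 and 25.4 in null livers and 325, 235 and 491 in control livers. Its log2 change was -2.96 (standard error 0.24, adjusted p = 9.74e-05), and with embryo sex as a term it stayed called, as did all 9. Cyp4a31 read 76.7, 129 and 119 in null livers and 177, 186 and 143 in control livers. Although the groups did not overlap, the log2 change of -0.53 was not called (adjusted p = 0.117). Its other probe set was dim and not called either (-0.64), and the mean of both was called in the fit on gene means, adjusted over genes (log2 change -0.59, adjusted p = 0.0326).

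The Cyp4f enzymes hydroxylate leukotrienes and other fatty acids, and 2 of 7 measured genes were called lower. Cyp4f15 read 118, 118 and 124 in the null arrays and 447, 622 and 378 in the control arrays, a 3.32-fold fall (log2 change -1.73, standard error 0.17, adjusted p = 0.000334). Cyp4f13 read 87.4, 68.0 and 92.1 in null livers and 206, 181 and 223 in control livers (log2 change -1.04, standard error 0.14, adjusted p = 0.00179). In both genes every null array lay below every control array. Cyp4f39 and Cyp4f16, which share the chromosome 17 cluster with them, had small changes that were not called. Cyp4f39 read 387, 384 and 398 in null livers and 441, 401 and 421 in control livers, with a log2 change of -0.10 (95% interval -0.34 to 0.14). Cyp4f16 read 147, 130 and 148 in null livers and 160, 129 and 160 in control livers (-0.06, interval -0.35 to 0.22). Cyp4f13 directly follows Cyp4f14 in gene order, and Cyp4f14 was dim in both groups at 28.3 ± 8.26 in null livers and 35.3 ± 12.8 in control livers. Cyp4f18, on chromosome 8 and known in mouse for leukotriene breakdown in neutrophils, read 125, 144 and 137 in null livers and 153, 151 and 156 in control livers. Its groups did not overlap and it was not called (log2 change -0.15, adjusted p = 0.482). The other probe set of Cyp4f18 was dim, with overlapping groups, and went the other way (log2 change 0.34, not called). Neutrophil markers summed to 27894 to 34639 in null livers and 30513 to 34366 in control livers. Cyp4f41-ps, a pseudogene by its symbol, was dim in both groups.

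Outside these subfamilies Cyp4v3, the mouse counterpart of a human fatty acid hydroxylase whose loss causes a crystalline eye disease, was the other family 4 gene that fell. Its brighter probe set read 100, 128 and 160 in null livers and 350, 341 and 342 in control livers, a 2.36-fold fall (log2 change -1.24, standard error 0.15, adjusted p = 0.00116). All null arrays lay below the control arrays, which were close together. The other probe set of Cyp4v3 read 86.4, 191 and 180 in null livers and 187, 185 and 236 in control livers, where the groups overlapped and the log2 change of -0.40 was not called (adjusted p = 0.379). Cyp4b1, best known from lung, read 143, 171 and 169 in null livers and 157, 210 and 194 in control livers (log2 change -0.18, adjusted p = 0.504). Cyp4x1, an enzyme with a poorly known role that is expressed in brain, read 254, 158 and 127 in null livers and 129, 102 and 136 in control livers. Null_1195 fell within the control range, and the log2 change of 0.41 was not called (adjusted p = 0.307).

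**Figure D3:**
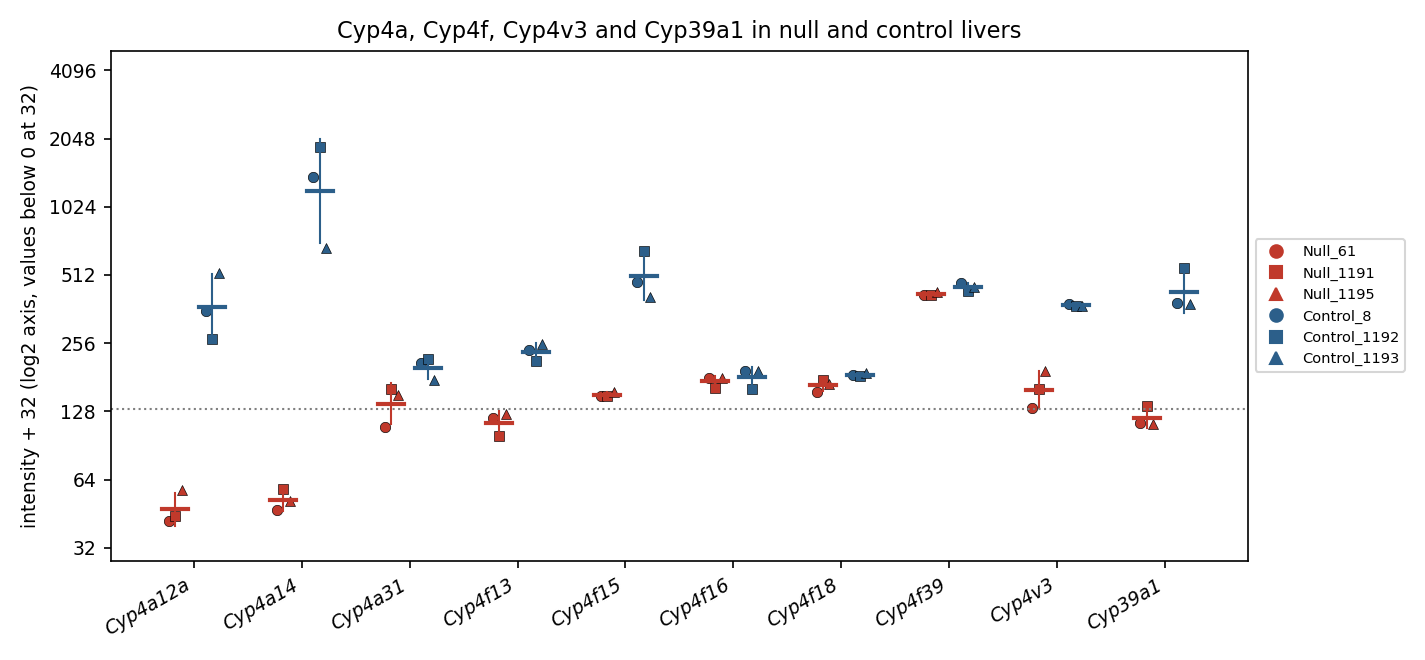
Intensity plus 32 on a log2 axis for 9 genes of family 4 and for Cyp39a1, with null arrays in red at the left of each gene and control arrays in blue at the right. Bars are means and SD of the log2 values (n = 3), and the dotted line marks the highest array median, 99.6; the groups are apart in Cyp4a12a, Cyp4a14, Cyp4f13, Cyp4f15, Cyp4v3 and Cyp39a1, and close in Cyp4f16, Cyp4f18 and Cyp4f39.

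Among the sterol enzymes, Cyp39a1 fell and Cyp46a1 was dim. Cyp39a1 adds a hydroxyl group to 24-hydroxycholesterol on the way to bile acids. It read 81.2 in Null_61, 103 in Null_1191 and 80.8 in Null_1195, against 351 in Control_8, 515 in Control_1192 and 347 in Control_1193. No null array reached the control range, and the log2 change was -1.84 (standard error 0.17, adjusted p = 0.000211). Cyp46a1, the brain enzyme that makes 24-hydroxycholesterol, read 31.6 ± 14.4 in null livers and 32.1 ± 8.17 in control livers. Cyp20a1, an enzyme without a known substrate, read 239, 204 and 235 in null livers and 232, 253 and 231 in control livers, with a log2 change of -0.07 (95% interval -0.33 to 0.20), and its 2 other probe sets were not called.

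None of the steroid hormone enzymes was called. Cyp11a1, which cuts the side chain of cholesterol, read 213, 177 and 277 in null livers and 238, 265 and 264 in control livers, with overlapping groups (log2 change -0.19, adjusted p = 0.521) and 2 dim further probe sets. Cyp17a1, which opens the way to androgens and cortisol, read 96.4, 86.5 and 101 in null livers and 122, 114 and 145 in control livers. The null arrays lay below the control arrays, but the log2 change of -0.32 missed the threshold (adjusted p = 0.181). Cyp21a1, the 21-hydroxylase, read 111, 130 and 135 in null livers and 106, 101 and 116 in control livers (log2 change 0.17, adjusted p = 0.471). Cyp11b1 and Cyp11b2, which finish corticosterone and aldosterone, were dim, and Cyp11b2 read 47.3 to 47.4 in null livers and 32.4 to 35.4 in control livers (adjusted p = 0.240). Of the other adrenal markers, Mrap was not dim, with 158 ± 21.7 in null livers and 154 ± 12.8 in control livers, and was not called. Star, Nr5a1 and Mc2r were dim in both groups, at 90.3 ± 17.7, 83.6 ± 15.5 and 26.0 ± 4.45 in null livers and 61.8 ± 18.6, 76.9 ± 16.0 and 26.9 ± 8.78 in control livers. The adrenal list as a whole summed to 922 to 1019 in null livers and 2587 to 2921 in control livers, where its 2 called genes, Hsd3b1 and Scarb1, were higher.

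Family 26 clears retinoic acid, and neither of its 2 measured genes was called. Cyp26b1 read 237 in Null_61, 251 in Null_1191 and 248 in Null_1195, against 176 in Control_8, 188 in Control_1192 and 194 in Control_1193. Every null array lay above every control array, and the log2 change was 0.35 (95% interval 0.10 to 0.60), which did not pass over all probe sets (adjusted p = 0.108). It passed with quantile normalization (adjusted p = 0.0450). It also passed in the fit on gene means (adjusted p = 0.0427), where its log2 change was the same, since it has a single probe set, and p was adjusted over 18193 genes in place of 45037 probe sets. Cyp26a1 was dim, with 74.9 ± 12.7 in null livers and 74.1 ± 7.58 in control livers. Cyp24a1, which degrades vitamin D, was dim as well (40.5 ± 19.9 in null livers, 49.0 ± 11.3 in control livers).

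The family 1 genes, which the aryl hydrocarbon receptor switches on, were not called. Cyp1a1 read 83.2 ± 2.80 in null livers and 82.2 ± 7.82 in control livers, and Cyp1a2, an abundant enzyme of adult liver, read 48.8 ± 12.9 in null livers and 58.8 ± 8.73 in control livers. Both were dim, and in both the groups overlapped. Cyp1b1, better known from mesenchymal cells, read 487, 185 and 232 in null livers and 312, 174 and 211 in control livers. Null_61 and Control_8 were the highest of their groups, the groups overlapped, and the log2 change was 0.26 (95% interval -0.46 to 0.98). Its 2 other probe sets were dim. Mesenchymal markers summed to 5542 to 8769 in null livers and 4621 to 5724 in control livers, and their part in this value was not tested.

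The 9 genes that were dim in both groups were Cyp1a1, Cyp1a2, Cyp4f14, Cyp4f41-ps, Cyp11b1, Cyp11b2, Cyp24a1, Cyp26a1 and Cyp46a1, with log2 changes from -0.19 to 0.28. None of them was called. Of the 9 genes with several probe sets, Cyp4v3 was the only one with a called probe set. The probe sets of Cyp4f16, Cyp4f18, Cyp11a1, Cyp21a1 and Cyp24a1 differed in sign within the gene. Their log2 changes ran from -0.06 to 0.12, -0.15 to 0.34, -0.19 to 0.13, -0.12 to 0.17 and -0.19 to 0.19 in that order. The 14 brighter genes that were not called had log2 changes from -0.82 to 0.41 with a median of -0.13. The 3 null livers gave similar shifts over the 9 called genes, where the median log2 change against the control mean was -2.81 for Null_61, -2.99 for Null_1191 and -2.68 for Null_1195. Since the call picked these 9 genes, the likeness is partly set by that choice. Over all 32 P450 genes the medians were -0.20, -0.22 and -0.16 in the same order. Null_61 and Control_8 have title numbers far from those of the other 4 arrays. Between these 2 arrays the 9 genes had log2 changes from -4.88 to -0.996, and between the other null and control arrays from -5.29 to -1.06.

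The electron donors and heme enzymes that serve P450s moved in part. Of 14 measured genes 4 were called lower and none higher, with a median log2 change of -0.03. Over all genes the shares were 7.85% and 1.56%, with a median of 0.01. Fdx1, the mitochondrial ferredoxin, read 356, 538 and 628 in null livers and 1596, 1499 and 1781 in control livers, a 3.14-fold fall (adjusted p = 0.000833). Pgrmc1, a heme-binding partner of P450s, fell 2.58-fold (736 ± 113 in null livers, 1937 ± 82.6 in control livers) and Cyb5a, the microsomal cytochrome b5, fell 2.07-fold (2600 ± 276 in null livers, 5398 ± 181 in control livers). Cyb5r3, which reduces cytochrome b5, fell 1.72-fold. Alas1, the first enzyme of heme synthesis in liver, read 728 ± 38.5 in null livers and 745 ± 23.4 in control livers and was not called. The heme synthesis genes Cpox, Urod and Fech were not called either, and erythroid cells use them as well.

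Of 23 measured receptors and transcription factors that act on P450 genes, 6 were called lower and 1 higher, with a median log2 change of -0.29. The shares over all genes were 7.85% and 1.56%, with a median of 0.01. Nr1i2, the pregnane X receptor that drives Cyp3a genes, read 40.2, 58.1 and 46.7 in null livers and 196, 222 and 322 in control livers (log2 change -1.77, adjusted p = 0.000397). Cebpa, a factor of hepatocyte differentiation, fell 3.25-fold, and Nr1h4, the bile acid receptor, fell 2.78-fold. Nr0b2, a repressor it induces, read 65.1 ± 10.3 in null livers and 208 ± 69.2 in control livers, and leaving out Control_1192 took its adjusted p to 0.0510. Ahr, the aryl hydrocarbon receptor, fell 1.58-fold, a call lost with the mean of its probe sets (adjusted p = 0.146). Nr3c1, the glucocorticoid receptor, also fell, by 1.56-fold, a call lost without Control_8 or Control_1192 (adjusted p = 0.0607 and 0.0684). The gene called higher, Foxa1, read 186 ± 56.5 in null livers and 85.4 ± 10.5 in control livers and lost its call without Control_8, Control_1192, Control_1193 or Null_1195 (adjusted p = 0.0943, 0.0847, 0.0748 and 0.06). Ppara, which drives Cyp4a genes, read 553, 557 and 639 in null livers and 634, 676 and 682 in control livers and was not called (log2 change -0.18, adjusted p = 0.392). Nr1i3, the constitutive androstane receptor, was close to the array median in both groups, at 91.8 ± 0.162 in null livers and 113 ± 29.2 in control livers.

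Other targets of the same receptors were measured beside the P450 genes, where 7.85% of all genes were called lower and 1.56% higher. Of 11 other PPAR alpha targets 9 were called lower and none higher, with a median log2 change of -1.44. Acaa1b, a peroxisomal thiolase, read 4.97, 24.5 and 18.6 in null livers and 1156, 1275 and 884 in control livers, a log2 change of -4.57. Fabp1 and Angptl4 fell 6.38-fold and 4.14-fold, Ehhadh and Vnn1 had log2 changes of -3.17 and -1.59. Of 8 other targets of the pregnane X and androstane receptors 3 were called lower, namely Ces2a, Gstm1 and Abcc2, with a list median of -0.42, and none higher. None of 4 other targets of the aryl hydrocarbon receptor was called.

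The lists nearest to the enzymes' substrates also held falls, against 7.85% of all genes called lower and 1.56% higher, with a median of 0.01. Of 12 other genes of steroid metabolism 6 were called lower, with a median of -0.64: Hsd17b2 read 30.1 ± 5.26 in null livers and 1245 ± 161 in control livers, Hsd3b1 37.0 ± 11.5 in null livers and 1329 ± 76.2 in control livers, and Hsd11b1, which regenerates active glucocorticoid, fell 5.54-fold. Hsd3b3 and Akr1c6 had log2 changes of -2.26 and -4.46. The P450 genes of families 11, 17 and 21 lay between -0.32 and 0.28. Of 13 other eicosanoid and omega-oxidation genes 4 were called lower, with a median of -0.18. They include Aldh3a2, the fatty aldehyde dehydrogenase that acts after omega-hydroxylation (77.8 ± 9.32 in null livers, 457 ± 47.9 in control livers), Ephx2 (log2 change -3.54) and Ephx1, which fell 2.01-fold. Of the same list Hpgd, which inactivates prostaglandins, was called at an adjusted p of 0.0434, and 10 of 17 alternatives lost the call. It was lost without any 1 of the arrays other than Null_61 (adjusted p from 0.0590 to 0.153). Embryo sex as a term, quantile normalization, the mean of its probe sets, a pseudocount of 1 and no trend also lost it (adjusted p = 0.11, 0.0733, 0.0981, 0.0568 and 0.055). Of 11 other retinoic acid genes 4 were called lower and 1 higher, with a median of -0.18. Rdh11 and Dhrs3, which handle retinaldehyde, fell 2.14-fold and 1.83-fold. Aldh1a1, a retinaldehyde dehydrogenase that was dim in both groups, had a log2 change of -1.33 and was no longer called without Control_1192 or with a pseudocount of 1 (adjusted p = 0.0513 and 0.0501). Bco1, which makes retinaldehyde from carotene, had a log2 change of -0.69, and of the 6 fits without 1 array only that without Null_61 called it. Stra6, the retinol uptake receptor, read 111 ± 13.6 in null livers and 54.4 ± 12.9 in control livers, and its call was lost without Control_8, Control_1192 or Null_1191 and over the 4 arrays other than Control_8 and Null_61 (adjusted p = 0.0653, 0.0623, 0.0844 and 0.0518).

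**Figure D4:**
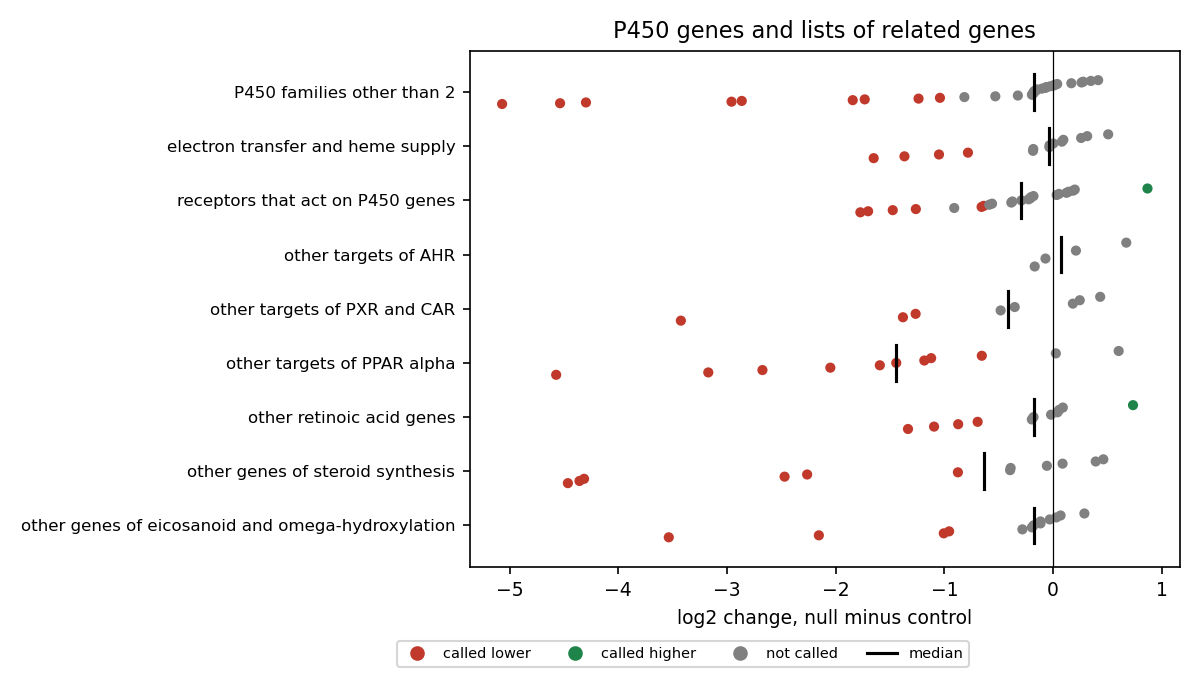
Log2 change (null minus control) of each gene of the P450 members and of 8 lists of related genes, with the median of each as a black bar. Red points were called lower, green points higher and grey points not called; the list medians run from -1.44 for other PPAR alpha targets to 0.07 for other targets of the aryl hydrocarbon receptor.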

How the data were processed

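Each array received biotin-labelled material from the total RNA of 1 fetal liver sample, following Affymetrix methods per the labels' protocols. The deposited values are linear probe-set intensities, from below 0 (between 0.909% and 1.34% of each array) to 12608, as the values show. How the authors summarised, background-corrected and scaled them, and with which software, is not stated in the labels or the file. Array medians of log2 values differed by at most 0.0877, so the deposited scaling was kept. No detection call was used.

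From 45101 probe sets, 64 array controls were left out. The platform annotation gave 1 symbol to 34945 probe sets, several to 932 and none to 9160. By Entrez number 34741 matched RefSeq (GRCm38.p6) and 0 symbols changed. A gene is represented by its singly named probe set with the highest mean log2 value. The null against control test used limma 3.58.1 under R 4.3.3 (lmFit, eBayes with an intensity trend, all 6 arrays, no covariate, two-sided), with Benjamini-Hochberg adjustment over 45037 probe sets. Within-array differences between members were compared with an exact permutation test. The null against control fit was tested on 45037 simulated probe sets with independent normal noise, of which 200 were changed. The changed ones were drawn from above the median control level. It recovered 84% of those changed by 1 log2 unit and 100% of those changed by 2, and made 12 false calls. On the real arrays 2501 probe sets were called lower and 658 higher. These recovery rates are therefore not the power of the real comparison.

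Arrays were grouped by title. The alternatives were quantile normalization, centred medians, pseudocounts of 1 and 100, leaving out probe sets below the median level, no trend, array weights, the run of title numbers as a block, the 4 arrays other than Control_8 and Null_61, embryo sex (read from Xist and Y-linked probe sets) as a term, the mean of a gene's probe sets (adjusted over genes), and each array left out. Values by array are given for every member gene that was called or not dim, and for other members in ranges or means. For the lists, up to 5 called genes with the smallest adjusted p are named; Ppara, Nr1i3, Alas1, Cpox, Urod, Fech, Nr3c1, Foxa1, Alb, Star, Nr5a1, Mc2r, Mrap and Scarb1 were added after their values were seen. The members, the lists and these tests were chosen with earlier results of these data known, and the core letters were chosen while the promoter windows were read.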

Additional observations from a re-analysis of the deposited data

How the results depend on the processing

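The 9 P450 genes called lower were called under all alternatives that tested them, with adjusted p of at most 0.0191, and no alternative reversed a called change. The count of P450 genes lower was 8 with only probe sets above the median level, where 22 of the 32 genes were tested and Cyp3a16 was not among them, and 10 with the mean of a gene's probe sets, a fit that was also adjusted over genes in place of probe sets. Without any 1 array it stayed at 9. The count of P450 genes higher was 0, and it was 1 with quantile normalization and 1 in the fit on gene means (Cyp26b1 in both, with an unchanged log2 change in the second, since it has 1 probe set); probe sets higher came to 1 with quantile normalization. Genes of electron transfer and heme supply numbered 4 lower and 0 higher throughout. Leaving out 1 array gave 4 to 8 receptor genes lower, against 6, and 0 to 1 higher, against 1. The other alternatives gave 6 to 9 receptor genes lower, with 9 where the run of title numbers was a block. Of 38 called genes of the related lists, 28 stayed called under all alternatives that tested them. Of the 23 P450 genes that were not called, 11 changed sign in some alternative, so no direction is claimed for them. No paired analysis was possible because the groups share no replicate numbers. Signal over background is not known, since no detection call was used, and the pseudocount understates changes of dim genes.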
